A study of Mus musculus with 2 samples.

Results

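*Igf2r* and its antisense RNA *Airn* were described in mouse embryo fibroblasts (MEFs), as 2 genes chosen by name and position from the 1718 annotated genes that lay wholly inside the regions with deposited RNA signal. RNA was measured in 1 library of JXO MEFs (JF1 mother, OG2 father) and 1 library of OXJ MEFs (OG2 mother, JF1 father), the reciprocal cross. Both came from female embryos of 13.5 dpc, the fibroblasts being cultured to passage 2 or 3 after the head and inner organs were taken away. JF1 is an inbred strain, and OG2 (TgOG2) is a transgenic line that was made in zygotes of mixed CBA/CaJ and C57BL/6J origin, so that all cells of both crosses carried 1 JF1 and 1 OG2 genome. With 1 library per cross, the values compare these libraries and not the crosses, and no p-value was computed. The intervals are exact 95% intervals for counting error, and they do not cover the spread between embryos or cultures. The tracks do not mark the base differences of JF1 and OG2, so the parental allele that was transcribed was not analysed here.

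*Igf2r* encodes the cation-independent mannose 6-phosphate receptor, which carries newly made lysosomal enzymes to endosomes and takes up the growth factor IGF2 at the cell surface for breakdown. In most mouse tissues the gene is expressed from the maternal chromosome. *Airn* is a long non-coding RNA that starts in an intron of *Igf2r*, is transcribed in the opposite direction across the *Igf2r* promoter and is known to be expressed from the paternal chromosome. Most of its RNA is unspliced, and its transcription is known to silence the paternal *Igf2r* promoter.

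On mm9, *Igf2r* (ENSMUSG00000023830.7) lies on the (−) strand at chr17:12875272-12962530, over 87.3 kb and 48 exons. *Airn* (ENSMUSG00000078247.3) is annotated on the (+) strand at chr17:12934177-13052988, over 118.8 kb, with 6 transcripts. The genes overlap over 28.4 kb, which hold exons 1 and 2 of *Igf2r*, intron 1 and most of intron 2. The *Airn* start lies in intron 2. The sequences before the 2 starts are shown because the signal of either strand began there, and another because it is the window of that length with the most CG pairs in the first 3 kb of *Airn*. Each is 250 bases of mm9, written 5′ to 3′ on the strand of its gene, with CG in capitals, namely chr17:12962531-12962780 (−) before *Igf2r*, chr17:12933927-12934176 (+) before *Airn* and chr17:12934599-12934848 (+) inside *Airn*.
*Igf2r* upstream: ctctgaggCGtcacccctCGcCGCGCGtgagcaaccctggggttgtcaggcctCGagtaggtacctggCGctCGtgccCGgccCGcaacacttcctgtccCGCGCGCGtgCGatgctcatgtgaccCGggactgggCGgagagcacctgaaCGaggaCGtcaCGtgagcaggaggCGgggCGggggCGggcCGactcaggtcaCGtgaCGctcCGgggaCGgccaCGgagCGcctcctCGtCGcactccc
*Airn* upstream: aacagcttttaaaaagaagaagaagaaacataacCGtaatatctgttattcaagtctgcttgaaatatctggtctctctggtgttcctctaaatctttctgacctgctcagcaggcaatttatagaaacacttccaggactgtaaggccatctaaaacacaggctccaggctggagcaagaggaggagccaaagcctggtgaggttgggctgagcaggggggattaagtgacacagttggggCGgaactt
*Airn* densest window: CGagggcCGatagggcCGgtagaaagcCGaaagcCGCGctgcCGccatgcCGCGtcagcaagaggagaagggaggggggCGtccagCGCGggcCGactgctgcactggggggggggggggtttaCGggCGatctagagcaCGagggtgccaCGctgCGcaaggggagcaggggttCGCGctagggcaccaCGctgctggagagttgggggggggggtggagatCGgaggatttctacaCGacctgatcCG
The window before *Igf2r* held 32 CG pairs, and 4.58% of 32851 mouse promoter windows of the same length (RefSeq, GRCm38.p6) held at least as many. The window before *Airn* held 2 CG pairs, a number that 81.2% of the promoters reached, while their median was 6. The densest window began 422 bp after the *Airn* start and held 24, which 11.98% of the promoters reached. The promoters were not searched for their densest window, so this share is not like for like.

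The deposited tracks held 7.61% of the aligned reads of JXO (5837225) and 6.70% of those of OXJ (5785447), in 618 regions, and the whole locus lay inside 1 of them. A level is the mean scaled depth, or the number of reads covering a base when a library is set to 50000000 aligned reads, and 1 read counted as 0.652 in JXO and 0.579 in OXJ. Among the marker genes of cell types, *Col1a2*, *Dcn* and *Lum* were the 3 of 12 fibroblast markers inside the deposited regions. *Col1a2* was at 583 in JXO and 388 in OXJ, *Dcn* at 22.9 in JXO and 25.9 in OXJ, and *Lum* at 18.9 in JXO and 15.5 in OXJ. *Nes*, an intermediate filament gene of progenitor cells, was at 340 in JXO and 155 in OXJ, and *Sox2*, of neural progenitors, at 1.27 in JXO and 1.22 in OXJ. The cartilage gene *Col2a1* was at 423 in JXO and 361 in OXJ, and *Sox9*, a regulator of cartilage, at 2.96 in JXO and 3.53 in OXJ. None of the markers chosen for blood, endothelium, epithelium, muscle and liver lay in the deposited regions, so these cell types were not analysed here. In such bulk RNA, fewer cells of a type and less RNA per cell cannot be told apart.

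**Figure D1:**
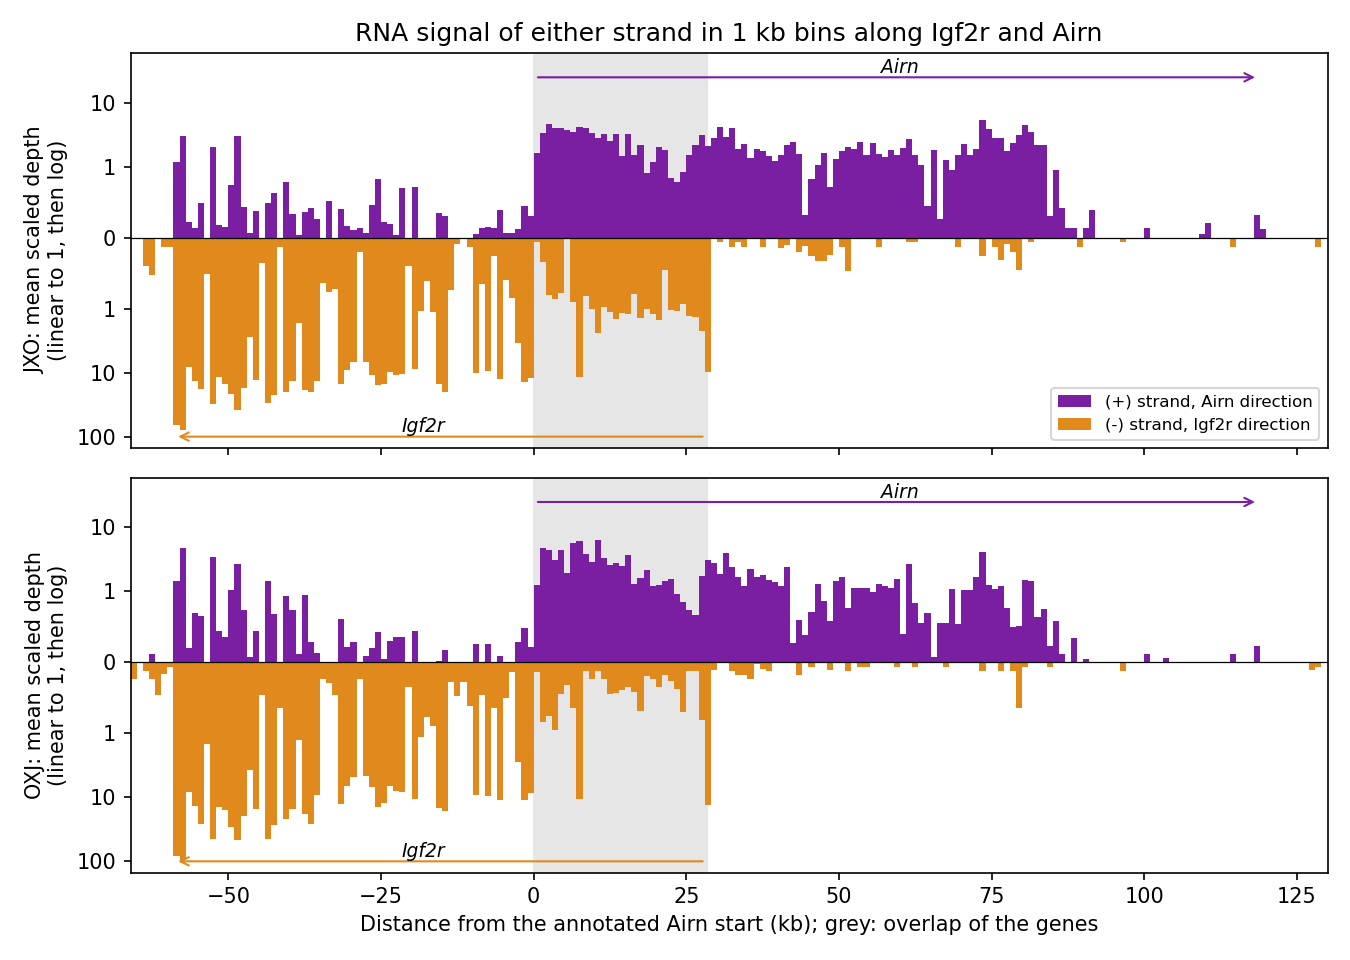
Mean scaled depth in 1 kb bins against the distance from the annotated *Airn* start, with JXO above and OXJ below, (+) strand RNA drawn upward and (−) strand RNA downward on an axis that is linear to 1 and then logarithmic. Arrows give the annotated genes, the (−) signal stops at the *Igf2r* start, and the (+) signal runs from the *Airn* start to about 92 kb in JXO and 91 kb in OXJ.

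*Igf2r* was an abundant RNA in both libraries. Over its exons the (−) strand level was 73.3 in JXO (71.4 to 75.3, 10615 reads), against 81.1 in OXJ (79.1 to 83.1, 13217 reads). These levels per base were above those of 84.98% of the 939 protein-coding genes inside the deposited regions in JXO and of 89.9% in OXJ, whose median level was 3.96 in JXO and 3.31 in OXJ. The own strand held 96.7% of the read bases over *Igf2r* exons in JXO (96.2 to 97.1%), against 96.2% in OXJ (95.8 to 96.7%). Of 609 protein-coding genes away from the locus, 98.2% had more than 50% of their exon signal on the own strand in either library.

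The (+) strand signal over *Igf2r* had a different form on either side of the *Airn* start. Outside the overlap, the *Igf2r* exons had a (+) level of 2.40 in JXO and 3.01 in OXJ, but the introns between them had 0.0280 in JXO (21 reads over 50116 bp) and 0.0173 in OXJ (14 reads). There, (+) signal was thus found over the exons and hardly between them, as the plot of 1 kb bins shows. It made up 3.04% of the read bases over these exons in JXO and 3.45% in OXJ, and its origin was not tested. Inside the overlap the introns had a (+) level of 2.54 in JXO and 2.65 in OXJ. In the 20 kb past the *Igf2r* end the (+) strand held 0 reads in JXO and 2 in OXJ.

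The exon level varied along *Igf2r*. The median exon had 76.8 in JXO, between 36.8 in exon 1 and 133 in exon 4, and 74.7 in OXJ, between 25.8 in exon 19 and 136 in exon 39. In JXO the 3 highest exons were 4, 3 and 47 (133, 122 and 112) and the 3 lowest 1, 19 and 10 (36.8, 37.8 and 44.5). In OXJ the 3 highest were 39, 45 and 44 (136, 134 and 131) and the 3 lowest 19, 18 and 17 (25.8, 38.5 and 40.04). Exon 19 was thus low in both libraries, and exons 3 and 4 at the 5′ side were the highest in JXO, while the 3 highest of OXJ all lay at the 3′ side. The last exon, number 48, which ends the message and covers 1721 bp, had 83.2 in JXO and 105 in OXJ.

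**Figure D2:**
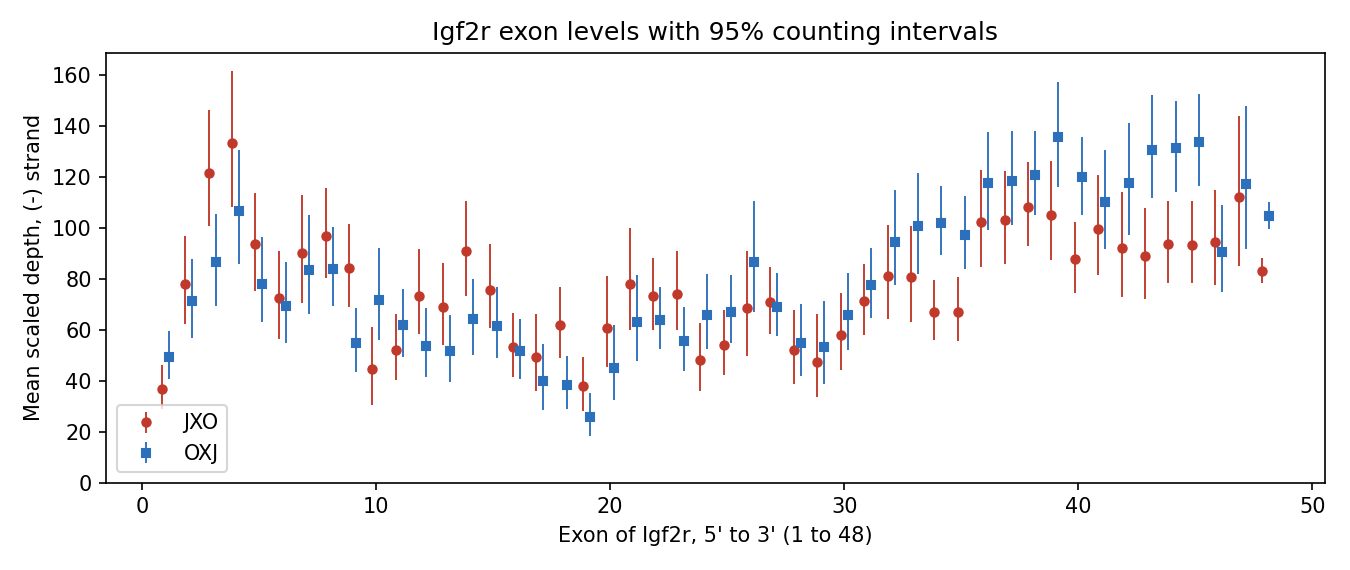
Mean scaled depth on the (−) strand for each of the 48 *Igf2r* exons, ordered 5′ to 3′, with circles for JXO, squares for OXJ and bars for 95% counting intervals. In these levels as deposited, JXO lies above OXJ in 20 of the 22 exons from 2 to 23. It lies below OXJ in 23 of the 25 exons from 24 to 48. The median gene is itself higher in JXO by 0.48 in log2 as deposited.

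The libraries differed along the message, and the blocks of exons used here were chosen after their values were seen, so their counts and ratios are a description. In levels as deposited, JXO was higher in 20 of 22 exons from 2 to 23. It was lower in 23 of 25 exons from 24 to 48. As deposited, the median of the 718 genes with at least 20 fragments was itself higher in JXO by 0.48 in log2. Relative to that median, 5 of the 22 exons and 0 of the 25 were higher in JXO. Over the last 10 exons against exons 14 to 23, the ratio of levels was 1.36 in JXO (1.25 to 1.48), against 2.22 in OXJ (2.04 to 2.42). When the exon bases were split at their midpoint, the log2 ratio of the 3′ side over the 5′ side was 0.35 in JXO and 0.83 in OXJ, a difference of −0.47. Across 206 genes with at least 10 exons and enough reads, this difference had a median of 0.04 and lay between −0.39 and 0.50 for the central 90%. For 5 genes, or 2.43%, the difference was lower than for *Igf2r*, and these, named after their values were seen, were *C2cd3*, *Mapkbp1*, *Ppip5k1*, *Stard9* and *Trappc9*.

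The introns of *Igf2r* carried much less RNA than the exons. Their (−) level was 0.727 in JXO (0.660 to 0.799), against 0.498 in OXJ (0.446 to 0.555). Exons were 101-fold above introns in JXO (91.4 to 111), against 163-fold in OXJ (146 to 182). Outside the overlap, and so without intron 1, the ratio was 137 in JXO (119.6 to 158), against 155 in OXJ (136 to 177), with intervals that overlapped. The median over 436 protein-coding genes was 38.01 in JXO and 35.4 in OXJ, and 82.1% of these genes in JXO and 92.2% in OXJ had a lower ratio than *Igf2r*.

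Intron 1, which spans 20372 bp and is crossed by *Airn* on the other strand, differed between the libraries. Its (−) level was 1.21 in JXO (1.04 to 1.39, 378 reads), against 0.349 in OXJ (0.265 to 0.445, 122 reads), 3.48-fold higher in JXO as deposited (2.60 to 4.74). JXO was higher in 20 of 20 1 kb bins of this intron, with levels from 0.452 to 2.42 in JXO (median 1.16) and from 0.116 to 0.810 in OXJ (median 0.304). Reads covered 69.7% of the bases of intron 1 in JXO and 39.2% in OXJ. The *Airn* RNA on the (+) strand of the same intron was at 2.20 in JXO and 2.27 in OXJ. The ratio of (−) over (+) signal in intron 1 was therefore 0.550 in JXO (0.458 to 0.658), against 0.154 in OXJ (0.115 to 0.201).

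Taken as a whole, the remaining intron sequence did not show this difference, although intron 22 did. Of the 45 introns from 3 on, 21 were higher in JXO, and intron 22 alone had intervals apart, at 0.914 in JXO (0.598 to 1.36, 25 fragments) and 0.284 in OXJ (0.135 to 0.561, 9 fragments). Introns 20 and 21 had 8 and 6 fragments in JXO, against 1 and 1 in OXJ, with intervals that overlapped. In the part of intron 2 inside the overlap, the (−) level was 0.543 in JXO (0.374 to 0.782), against 0.592 in OXJ (0.411 to 0.805), and the ratio to the (+) strand was 0.157 in JXO and 0.160 in OXJ. Outside the overlap, the introns had 0.557 in JXO (0.485 to 0.636), against 0.545 in OXJ (0.478 to 0.619). Over the whole overlap against outside it, the (−) intron level was 1.86-fold in JXO (1.53 to 2.26), against 0.757-fold in OXJ (0.594 to 0.964), so that the direction was opposite in the 2 libraries. Intron 1 was 2.18-fold above the introns outside the overlap in JXO (1.78 to 2.65), against 0.639-fold in OXJ (0.472 to 0.846). The (−) signal ended at the *Igf2r* start, since the 5 kb before it had 0.0455 in JXO (3 reads) and 0.0804 in OXJ (6 reads).

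**Figure D3:**
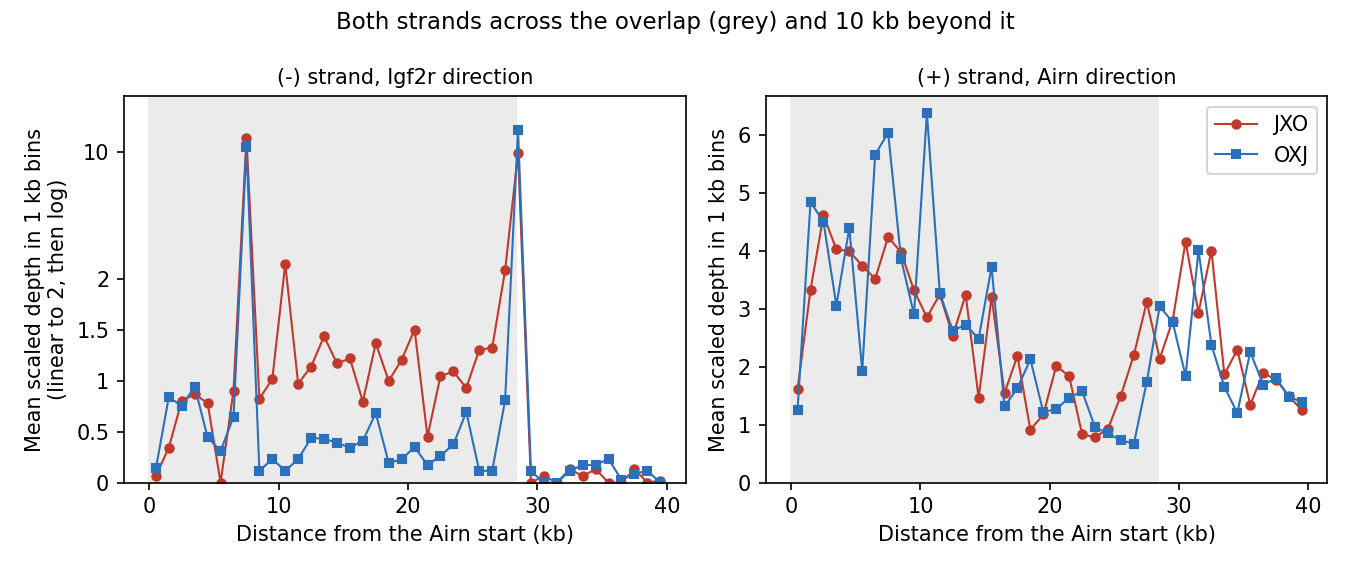
Mean scaled depth in 1 kb bins on the (−) strand (left, linear to 2 and then logarithmic) and the (+) strand (right, linear) against the distance from the *Airn* start, with the overlap in grey, circles for JXO and squares for OXJ. Exons 2 and 1 of *Igf2r* give the 2 peaks of the (−) strand, and between them every bin of intron 1 is higher in JXO, while (+) levels of the libraries cross each other.

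As deposited, the introns of the 427 other protein-coding genes with enough intron reads had a median log2 ratio of JXO over OXJ of 0.41, and 0.03 was found for the *Igf2r* introns outside the overlap. For all *Igf2r* introns pooled it was 0.545. For intron 1 the value was 1.80, higher than for 99.5% of these genes. That rank sets 1 intron, picked out for its difference, against the pooled introns of each gene, and is a description only. The 2 genes above intron 1 were named after their values were seen. They were *Hoxb9*, at 2.71 in JXO and 0.709 in OXJ, and *Slc25a29*, at 0.273 in JXO and 0.0763 in OXJ.

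*Airn* was seen as nearly continuous (+) strand signal from its start. The first (+) read began 56 bp after the annotated start in JXO and 70 bp after it in OXJ, and the intron bases of *Igf2r* within 1 kb before it, 900 in all, held 0 (+) reads in both libraries. A count of 0 allows up to 3 fragments, a one-sided 95% limit, here a level of 0.435 in JXO and 0.386 in OXJ. The first 1 kb of *Airn* had 1.61 in JXO and 1.26 in OXJ, and the second 1 kb had 3.33 in JXO and 4.85 in OXJ. The densest CG window shown above lies within that first 1 kb.

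The (+) signal was nearly continuous only to a point before the annotated end. In 1 kb bins, it ran to 92 kb in JXO and to 91 kb in OXJ before the first gap of 5 kb, with signal in 91 of 92 bins in JXO and 90 of 91 bins in OXJ. Of the 118 whole bins of the annotated gene, 94 had signal in JXO (79.7%, Clopper-Pearson 71.3 to 86.5%), against 93 in OXJ (78.8%, 70.3 to 85.8%). The run held 99.6% of the *Airn* reads in JXO and 99.7% in OXJ. Past 92 kb, the remaining 26.8 kb of the annotation had a level of 0.0263 in JXO (10 reads) and 0.0194 in OXJ (9 reads). Of these, 4 reads in each library lay in the last annotated exon, chr17:13052407-13052988, at a level of 0.540 in JXO and 0.398 in OXJ. When gaps under 10 kb were bridged, the run reached 120 kb in JXO and 104 kb in OXJ.

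Gaps inside the run were short. They left 23.3% of the bases of the first 92 kb without a read in JXO and 27.5% in OXJ, and the longest measured 2151 bp at 88.6 kb in JXO and 1666 bp at 86.5 kb in OXJ. Bases in words of 32 letters with more than 10 copies in mm9 made up 17.5% of the uncovered and 9.59% of the covered bases in JXO, and 20.02% and 8.19% of them in OXJ. The part of such repeats in the gaps was not tested. The 3 annotated copies of other genes inside the run, *7SK*, *Gm16574* and *Gm7162*, had a (+) level of 1.86 in JXO and 0.925 in OXJ, and since reads could be placed at up to 10 loci their share of *Airn* is uncertain.

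Over the annotated gene, *Airn* had a level of 1.59 in JXO (1.51 to 1.67, 2895 reads), against 1.26 in OXJ (1.196 to 1.33, 2593 reads). In the overlap with *Igf2r*, it was 2.57 in JXO (2.36 to 2.79), against 2.71 in OXJ (2.51 to 2.92), with intervals that overlap. From the *Igf2r* start to 92 kb, it was 1.81 in JXO (1.69 to 1.93), against 1.14 in OXJ (1.06 to 1.24), with intervals apart. Inside over beyond, the ratio was 1.42 in JXO (1.28 to 1.58), against 2.37 in OXJ (2.12 to 2.64), so *Airn* was lower beyond the *Igf2r* start in both libraries and by more in OXJ. Beyond the overlap, where no *Igf2r* RNA is transcribed, the (+) strand held 95.9% of the read bases in JXO and 96.0% in OXJ.

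Between its first 10 kb and the part from 80 to 90 kb, *Airn* fell by more in OXJ, but the fall was steady in neither library. In JXO the part from 70 to 80 kb was above all parts but the first. In the first 10 kb the level was 3.64 in JXO (3.22 to 4.09), against 3.85 in OXJ (3.44 to 4.28), and in the second 10 kb 2.24 in JXO and 2.75 in OXJ. The parts from 20 to 60 kb had between 1.36 and 2.30 in JXO and between 0.978 and 1.97 in OXJ. From 60 to 70 kb it was 1.35 in JXO (1.10 to 1.63), against 0.805 in OXJ (0.622 to 1.01). From 70 to 80 kb it was 2.79 in JXO (2.43 to 3.19), against 1.32 in OXJ (1.09 to 1.59), and from 80 to 90 kb 1.42 in JXO (1.17 to 1.71), against 0.564 in OXJ (0.420 to 0.750). As deposited, JXO was thus above OXJ in the last parts, with intervals that did not meet. In 1 kb bins as deposited, JXO was higher in 15 of 28 bins inside the overlap and in 49 of 63 beyond it. With the median gene set equal, a scale explained with the ratios of both genes, these counts were 5 of 28 and 34 of 63.

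**Figure D4:**
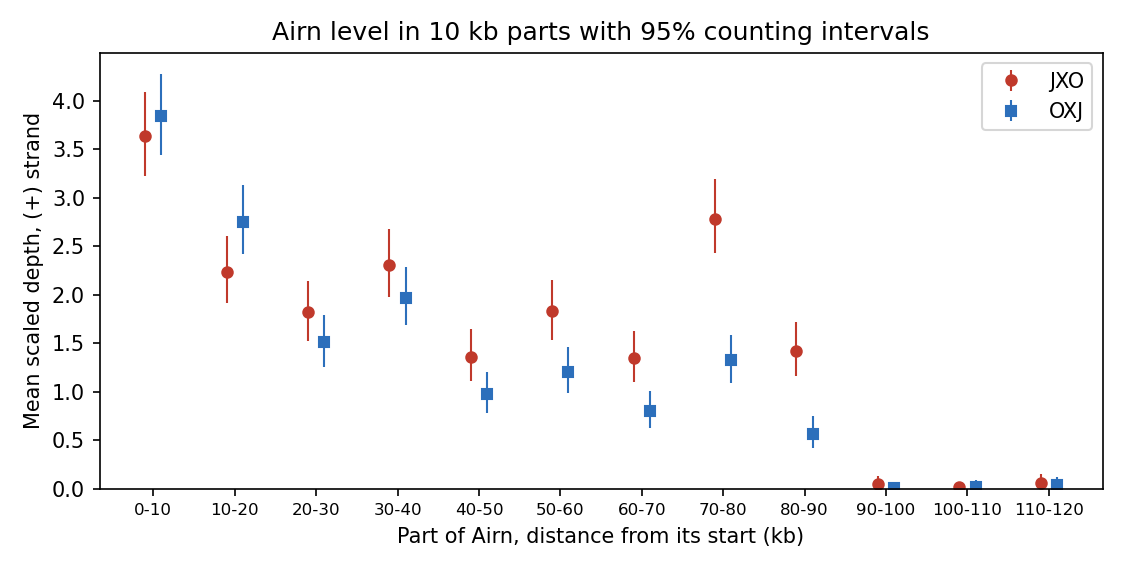
Mean scaled depth on the (+) strand in 10 kb parts of *Airn*, ordered from its start, with circles for JXO, squares for OXJ and bars for 95% counting intervals. The level is 3.64 in JXO and 3.85 in OXJ in the first part, stays above 0.5 up to 90 kb in both libraries and is below 0.1 in the later parts.

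Some RNA lay in annotated *Airn* exons above their surroundings. The exon at chr17:13007362-13008423 (+), the last of transcript Airn-001, had 6.52 in JXO (106 reads) and 4.33 in OXJ (79 reads). The 2 kb on either side of it had 1.72 in JXO and 1.31 in OXJ, which gives a ratio of 3.79 in JXO (2.49 to 5.89), against 3.30 in OXJ (2.09 to 5.47). Exon 1, of 114 bp, had only 1 read in each library. The splice sites of this exon pair are shown because the exon stood above its surroundings in both libraries, with the donor GT at chr17:12934276-12934305 (+) and the acceptor AG at chr17:13007347-13007376 (+) in capitals, and with 15 bases of exon and 15 of intron in each sequence of mm9.
*Airn* exon 1 donor: tcctggggaactgagGTaagctagggttcc
*Airn* acceptor: taacctttcttctAGcccaccacctaccag
The exon at chr17:13008797-13009660 of transcript Airn-006 had 3.89 in JXO and 0.804 in OXJ, against 2.24 in JXO and 1.11 in OXJ around it. The exon at chr17:13022691-13023201, which ends transcripts at about 89 kb, had 0.115 in JXO and 0.369 in OXJ. The tracks do not show which reads cross splice junctions, and the spliced share of *Airn* was not measured.

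For the comparison of JXO with OXJ, the ratios were set relative to the median of the 718 genes with at least 20 fragments, since the median gene was higher in JXO by 0.48 on the log2 scale as deposited. On this scale, *Igf2r* exons were at −0.62 (−0.68 to −0.57), below zero and past the limit of 1.5-fold lower that 11.1% of the 718 genes passed. As deposited, the value was −0.15, at equal totals −0.33 and with the median 10 kb bin set equal −0.52, so *Igf2r* was lower in JXO on all 4 scales but past 1.5-fold only on the first. Of all genes, 10.3% had a lower ratio than *Igf2r*. *Airn* was at −0.15 (−0.26 to −0.04), and as deposited at 0.33, so its direction turned with the scaling. Beyond the overlap it was at 0.18 (0.03 to 0.33), and inside the overlap at −0.55 (−0.72 to −0.39). On the same scale, the fibroblast markers *Col1a2*, *Lum* and *Dcn* were at 0.11, −0.19 and −0.66, so they did not share a direction. *Nes* was at 0.66 and *Sox2* at −0.42, with both signs in the interval of *Sox2* (−1.29 to 0.43). *Col2a1* was at −0.25 and *Sox9* at −0.73. The part of cell composition in these ratios was not tested. The maternal *Igf2r* allele was JF1 in JXO and OG2 in OXJ, and the paternal *Airn* allele the reverse. Reads of both libraries were aligned to mm9, and the part of strain and of alignment in these ratios was not tested.

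Along *Igf2r*, all 25 exons from 24 to 48 were lower in JXO relative to the median gene, by −1.08 to −0.41 in log2, while exons 2 to 23 had a median of −0.18 and 5 of 22 were higher. Exon 1 was at −0.90 (−1.34 to −0.47). Along *Airn*, the log2 ratio was −0.56 in the first 10 kb, −0.78 in the second and between −0.25 and 0.13 from 20 to 60 kb. It was 0.27 from 60 to 70 kb, with both signs in its interval (−0.18 to 0.73). From 70 to 80 kb it was 0.59 (0.27 to 0.94), and from 80 to 90 kb 0.86 (0.35 to 1.36). A change of scaling moves all these values by the same amount and leaves their order as it is.

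**Figure D5:**
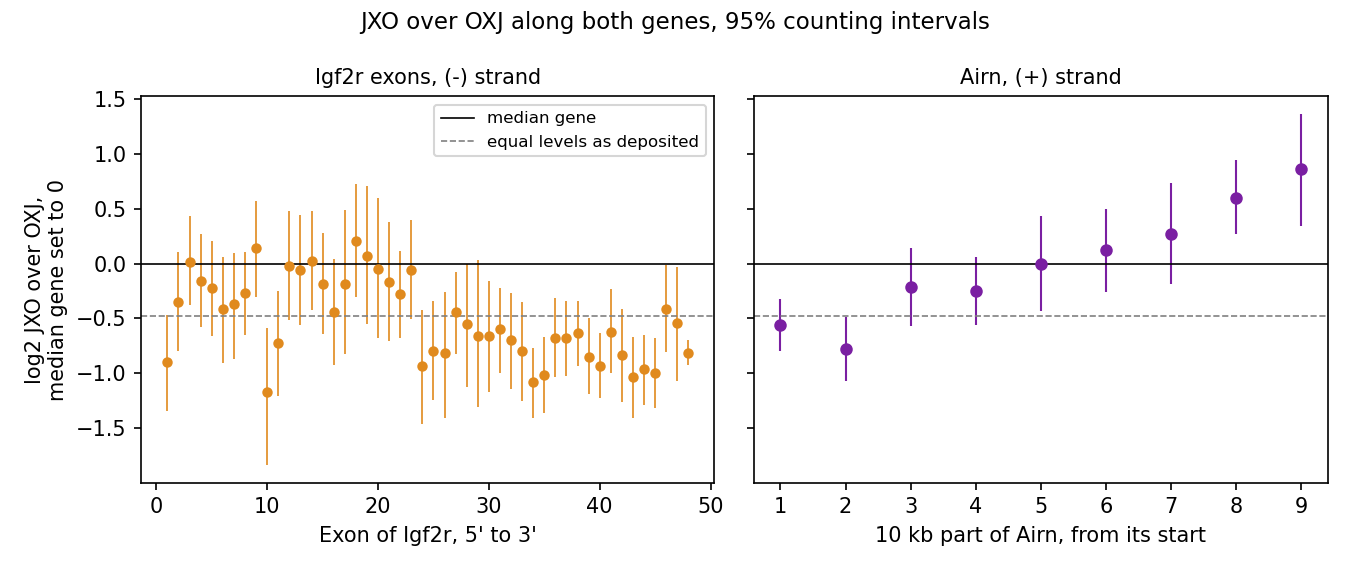
Log2 ratio of JXO over OXJ, with the median gene set to 0, for the 48 exons of *Igf2r* (left) and for the first 9 parts of 10 kb of *Airn* (right), with bars for 95% counting intervals and a dashed line for equal levels as deposited. The exons from 24 on all lie below 0, and the *Airn* parts go from −0.56 in the first to 0.86 in the last.

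Of 15 neighbouring genes chosen for their place near *Igf2r*, 11 lay inside the deposited regions. *Plg*, which encodes plasminogen, *Slc22a2*, an organic cation transporter, and *Mas1*, a receptor gene that lies on the (−) strand in the last part of the annotated *Airn*, had 0 exon fragments in both libraries. *Pnldc1*, a ribonuclease gene, had 0.692 in JXO and 0.700 in OXJ. Higher levels were found for *Tcp1*, a chaperonin subunit, at 478 in JXO and 268 in OXJ, *Mrpl18*, of the mitochondrial ribosome, at 103 in JXO and 62.2 in OXJ, and *Sod2*, the mitochondrial superoxide dismutase, at 69.2 in JXO and 40.6 in OXJ. Relative to the median gene, the 7 neighbours with enough fragments had log2 ratios with a median of 0.25. Of these, 0 of 7 were 1.5-fold higher and 0 of 7 were 1.5-fold lower, against 6.69% and 11.1% of all tested genes. *Acat3*, which is among these 7, overlaps *Tcp1* on the other strand. Only 8.40% of its exon signal in JXO and 10.2% in OXJ was on its own strand, and whether that signal came from *Acat3* was not tested.

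Of 18 genes of the IGF axis, 4 lay inside the deposited regions, and of them 0 were 1.5-fold higher and 2 were 1.5-fold lower in JXO, against 6.69% and 11.1% of all tested genes. *Igf2*, the ligand that *Igf2r* takes up, was at 765 in JXO and 464 in OXJ (log2 0.24), and *Grb10*, an adaptor that dampens insulin and IGF receptor signals, at 614 in JXO and 486 in OXJ (−0.14). *Igfbp6*, a binding protein of IGF2, was at 25.8 in JXO and 33.5 in OXJ (−0.86), and the non-coding *H19* at 7469 in JXO and 8112 in OXJ (−0.60). *Igf2r* and *Igf2* thus lay on opposite sides of the median gene. Of 25 genes of mannose 6-phosphate sorting, 1 could be measured, *Ctsd*, a lysosomal protease that is a cargo of the receptor, at 759 in JXO and 553 in OXJ (−0.02).

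Of 7 long non-coding RNAs of other imprinted domains chosen to compare with *Airn*, 5 were measured, and *Kcnq1ot1* and *Peg13* were not. Over whole genes, introns included, *Airn* at 1.59 in JXO and 1.26 in OXJ was the lowest among the 6 long non-coding RNAs of imprinted domains measured here. *Nespas*, the next, had 3.55 in JXO and 2.11 in OXJ, *Mirg* 13.6 in JXO and 13.3 in OXJ, *Meg3* 16.4 in JXO and 18.0 in OXJ, *Rian* 43.7 in JXO and 36.1 in OXJ, and *H19* 6777 in JXO and 7360 in OXJ. Relative to the median gene, the whole-gene log2 ratio of *Airn* was −0.15, and those of the 5 others had a median of −0.44, from −0.61 in *Meg3* to 0.27 in *Nespas*. Among 91 genes within 2-fold of its level, the genes nearest to *Igf2r* in their log2 ratio were *P4ha3* (−0.69), *Gm11539* (−0.70) and *Lrrc32* (−0.71). Among 80 genes within 2-fold of the level of *Airn*, the nearest were *Stk30* (−0.15), *Ppp1r3d* (−0.16) and *0610009E02Rik* (−0.16). This likeness rests on 1 ratio between 2 libraries.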

How the data were processed

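RNA depleted of ribosomal RNA was marked by strand with dUTP and sequenced in pairs, for 2 libraries. The submitters' processing notes name mm9, CASAVA 1.9 and TopHat 1.2.0. The authors scaled the depth at each base to 50000000 aligned reads, allowed reads at up to 10 loci and deposited log2 of 1 plus that depth in 4 tracks. These log2 values were turned back into depth, which came out as whole reads to within a relative 3.65e-14. Tracks named forward held (−) strand RNA, checked on protein-coding genes. Only part of each library is in the tracks, and bases outside the deposited regions were not analysed here.

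Genes and exons were those of GENCODE M1 on mm9. A region ends where 50 kb pass without a covered base. Fragments were counted as 200 read bases, and intervals are exact Poisson, Clopper-Pearson or conditional binomial. The exons named were the 3 highest, the 3 lowest, the first and the last, and of each gene list up to 6 measured members. Genes and lists were chosen with earlier results of these data known. Alternatives changed the measure, the exon set, the bins and the scaling. Ratios were tested on simulated data. The tools were Python 3.11.15 with scipy 1.17.1, pandas 2.3.3 and numpy 2.4.6, and matplotlib 3.10.9 for figures. Allele counts and other assays were not used here. The values of 1 neighbouring gene are not reported here.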

Additional observations from a re-analysis of the deposited data

How the results depend on the processing

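No paired analysis was possible because each cross has 1 library, and leaving out a library was not possible for the same reason. The mean of the log2 values lowered the levels, to 58.3 in JXO and 60.6 in OXJ for *Igf2r* exons, 0.517 and 0.381 for its introns, and 1.03 and 0.803 for *Airn*. Medians over 100 bp bins gave 77.6 in JXO for the exons, 0.476 and 0.327 for the introns in JXO and OXJ, and 1.06 and 0.637 for *Airn*. Exons of the longest transcript gave 77.8 and 86.1 in JXO and OXJ, and *Airn* over its first 92 kb, added after seeing the data, 2.04 and 1.63. Counted in covered bases, the own strand share was 54.6% in JXO and 52.5% in OXJ for *Igf2r* exons, since few (+) reads cover many exon bases. For *Airn* beyond the overlap to 92 kb, it was 90.0% in JXO and 91.5% in OXJ. Over the whole overlap, the (+) share of covered bases was 57.2% in JXO and 66.3% in OXJ. The intron ratio inside over outside the overlap in JXO was 2.41 with medians and 1.46 with the share of bases covered, a measure chosen after seeing the data. The *Airn* ratio inside over beyond was 2.01 in JXO and 3.34 in OXJ to the annotated end, and in OXJ 1.84 over an equal length and 2.67 with medians. With a gap of 10 kb the run ended at 120 kb in JXO and 104 kb in OXJ, and in OXJ at 89 kb with either stricter rule for a bin. The log2 ratio of *Igf2r* was −0.15 as deposited, −0.33 at equal totals, −0.52 by the median bin and −0.53 with no filter. The log2 ratio over its introns was 0.066 (−0.14 to 0.28), with both signs in the interval. Outside the overlap, the log2 ratio of these introns was −0.45 (−0.72 to −0.18). That of *Airn* was 0.33 as deposited and 0.15 at equal totals, −0.55 inside the overlap, and 0.18 beyond it, or 0.17 without annotated copies, which was added after seeing the data. The cause was not tested. Intron 1 of *Igf2r* rests on 378 reads in JXO and 122 in OXJ, which limits what a single bin can show.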
